A study of Mus musculus with 18 samples.

Results

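Coenzyme Q and dolichol are the 2 non-sterol lipids made from farnesyl diphosphate that the 10 genes described here build or recycle. The genes were taken by symbol from the deposited count table, which held 55487 genes, and all 10 members, Pdss1, Pdss2, Coq2, Coq3, Coq5, Coq7, Coq9, Dhdds, Nus1 and Dolpp1, had counts in every library. RNA was measured in 18 libraries of cultured primary Leydig cells of the mouse, which make testosterone between the tubules of the testis, in 6 groups of 3. Cells were transfected with the control siRNA siNC or with siprdx1, an siRNA against Prdx1, the gene of the peroxide-reducing enzyme peroxiredoxin 1. In each arm, 1 group had no H2O2, 1 had 200 µM H2O2 for 30 min, and 1 had the same H2O2 followed by 5 µM of the statin fluvastatin (FV) for 6 h. In place of fluvastatin the other groups had 0.1% DMSO over that time. Since the labels list no DMSO where they list fluvastatin, the drug and its vehicle cannot be told apart, and no group had fluvastatin without H2O2. Strain and age of the mice are not given in the sources used here. The replicates are called biological, with no statement that they came from separate animals, so p-values measure the spread between these cultures.

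Statins lower the supply of mevalonate. Farnesyl diphosphate, made from mevalonate, feeds sterols, prenylated proteins, the long tail of coenzyme Q and dolichol. Coenzyme Q carries electrons in the mitochondrial inner membrane, where steroidogenic cells also hold the enzyme that starts steroid synthesis, and its reduced form is a lipid antioxidant. Dolichol phosphate is the lipid on which the sugar chains for N-glycosylation are assembled at the endoplasmic reticulum. Pdss1 and Pdss2 encode the subunits of the synthase of the coenzyme Q tail, Coq2 joins the tail to the ring, Coq3 and Coq5 are ring methyltransferases, Coq7 is a ring hydroxylase and Coq9 is the lipid-binding partner of Coq7. Dhdds and Nus1 encode the subunits of the cis-prenyltransferase that builds the dolichol chain, and Dolpp1 is the phosphatase that recycles the dolichyl diphosphate left after each sugar transfer.

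The labelled cell type was only partly borne out by marker genes. Of 8 Leydig markers, 6 were expressed enough to be tested, with means over the 18 libraries of 712 CPM (counts scaled to the TMM-adjusted size of each library) for Cyp11a1 and 286 CPM for Star, while Cyp17a1 (0.0318 CPM) and Hsd17b3 (0.067 CPM) were near 0. All 8 macrophage and 6 stromal markers were tested, led by Lyz2 at 5677 CPM and Col3a1 at 5662 CPM, while the stromal marker Lum was at 5.26 CPM. The members may thus have been read in a mixed culture. Bulk RNA cannot tell other cell types from expression of these markers in the labelled cells. Nor can it tell fewer cells of a type from less RNA per cell. Library totals ranged from 15201530 to 23898435 counts. Prdx1, the targeted gene, was at 1279 to 1690 CPM in the 9 siNC libraries and 426 to 576 CPM in the 9 siprdx1 libraries. Libraries also differed in the dependence of counts on GC content, from -0.15 to 0.15 on the log2 scale per 10 percentage points of GC, and the siNC+H2O2+FV replicate 1 (-0.15), siprdx1+H2O2 replicate 1 (-0.14) and siprdx1+H2O2 replicate 2 (0.15) libraries stood at the ends.

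Dolpp1, on chromosome 2 (30392254 to 30400529, plus strand, GRCm38), was the member with the largest fall after fluvastatin, and its promoter is shown for that reason. The stretch below is the 250 bases before its RefSeq start (chr2:30392004-30392253, plus strand, GRCm38.p6), 5′ to 3′. Capitals mark every match to the motifs searched.
Dolpp1: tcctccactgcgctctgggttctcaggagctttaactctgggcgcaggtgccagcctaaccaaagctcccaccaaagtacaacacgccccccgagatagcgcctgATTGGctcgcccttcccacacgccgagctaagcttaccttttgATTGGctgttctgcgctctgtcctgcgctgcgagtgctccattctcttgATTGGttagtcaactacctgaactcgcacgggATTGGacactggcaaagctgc
All 4 capitalised stretches read ATTGG, the reverse complement of the CCAAT box bound by NFY, and no other motif searched was found there. The first bases of these boxes lay at -145, -102, -53 and -21 from the start. Only 1.06% of all 32851 RefSeq promoters of 300 bases held 4 or more such boxes, a share looked up after these boxes had been counted, while 37.4% held at least 1.

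Of the 10 members, 9 had a promoter in the RefSeq table, searched from 250 bases before to 50 after the start on both strands. A CCAAT box stood in 4 of 9 (Coq7, Dhdds, Nus1 and Dolpp1). A GC box (GGGCGG) stood in 5 of 9 members (Pdss2, Coq3, Coq9, Dhdds and Nus1) against 35.7% of all promoters. A YY1 site (AAGATGGC) was found in Coq9 and Nus1, against 2.75% of all promoters, and an ETS site (CCGGAAG) in Pdss1 and Pdss2, against 8.86%. Dhdds held an E-box (CACGTG), present in 7.15% of all promoters, and Coq9 held the antioxidant response element core TGACNNNGC at -45, present in 12.4%. No member held the SRE-like motif TCACNCCAC (1.24% of all promoters), the CRE TGACGTCA (1.79%), the AP-1 site TGACTCA, whose reverse complement is TGAGTCA (5.2%), the NRF1 site (0.971%) or the serum response element (1.63%). The core of the antioxidant response element and the CRE share their opening letters TGAC.

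Compared per kb of merged exons, Nus1 was the most abundant member. Its level averaged 26.4 CPM per kb over the 18 libraries (range 23.0 to 32.3). Coq2 (11.8 CPM per kb), Coq9 (10.6), Dhdds (10.4) and Coq5 (8.71) followed, then Coq3 (3.88), Dolpp1 (3.39) and Coq7 (2.24), and last the tail synthase subunits Pdss2 (1.08) and Pdss1 (1.07). Neighbours in this order overlapped over the 18 libraries except at 3 places, namely Nus1 above Coq2, Coq5 above Coq3 and Coq7 above Pdss2. The subunits of the dolichol-chain synthase were thus unequal in level, Nus1 at 26.4 and Dhdds at 10.4 CPM per kb, while those of the coenzyme Q tail synthase overlapped. Using the longest transcript in place of merged exons kept Nus1 first but changed the place of every other member, Coq3 moving most, from 6 to 8. By that length Pdss1 stood at 2.33 and Pdss2 at 1.58 CPM per kb, and Nus1 at 27.9 and Dhdds at 12.2. How alike the tail synthase subunits were thus depends on the length used.

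Across the 6 groups the members varied about as much as genes in their range of mean CPM. The ratio of the highest to the lowest group mean had a median of 1.22 over the members, against 1.31 over all 16432 genes tested and 1.24 over the 9861 genes in the members' range of mean CPM. It was widest for Pdss1, at 1.45, followed by Dolpp1 at 1.32, and narrowest for Dhdds, at 1.11. In a test of any difference among the 6 groups, Dolpp1 (edgeR adjusted p = 0.00974) and Coq9 (adjusted p = 0.0383) passed, that is 2 of 10 members against a background of 42.9% of all genes tested. The other members did not pass that test.

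**Figure D1:**
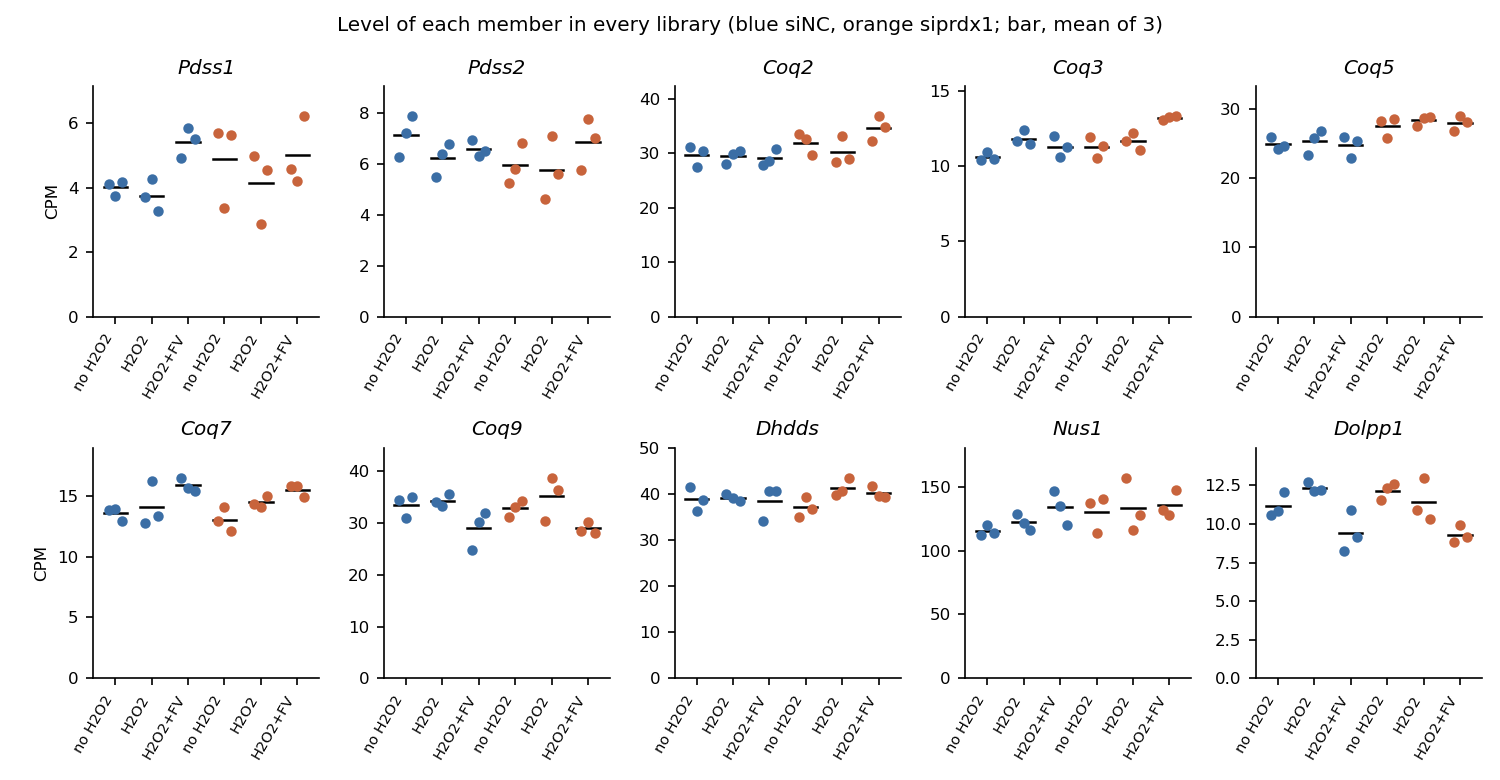
Each panel plots 1 member's CPM (y axis, starting at 0) in the 18 libraries by group (x axis), with siNC in blue, siprdx1 in orange and a bar at the mean of each 3. Dolpp1 and Coq9 sit lowest in the fluvastatin groups of both arms, with group means of 9.42 and 9.31 CPM for Dolpp1 and 29.0 and 28.9 CPM for Coq9.

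The first comparison asked how H2O2 changed the members 6 h later. In siNC cells no member passed (0 of 10 members by edgeR, limma voom and DESeq2, against 6.95% of all genes tested), and 0 had an unadjusted p under 0.05, against 21.6% of all genes. In siprdx1 cells no member passed either (0 of 10 by the same 3 tools, against 7.87%), and 1 had an unadjusted p under 0.05, against 20.6% of all genes. The largest member values were -0.19 for Pdss2 in siNC (95% interval -0.50 to 0.12, log2 scale) and -0.23 for Pdss1 in siprdx1 (-0.66 to 0.20). The intervals reached 0.15 to 0.44 on either side of the estimates. A fall of 0.39 lay inside the interval for Pdss1 in both arms and for Pdss2 in siNC, and outside it for the other 8 members in both arms. In siNC the groups did not overlap for Coq3 and Dolpp1, and in siprdx1 for Coq7 and Dhdds. That is 2 of 10 members in each arm, against 26.9% and 22.6% of all genes.

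Fluvastatin after H2O2 was followed by less Dolpp1 RNA. In siNC cells its level was 12.7, 12.1 and 12.2 CPM after H2O2 and 8.24, 10.9 and 9.13 CPM after H2O2 and fluvastatin. Every fluvastatin library lay below every H2O2 library. The log2 fold change was -0.39 ± 0.11 (SE, n = 3 per group, 95% interval -0.61 to -0.16, edgeR adjusted p = 0.0116), a level 0.765 times that after H2O2 alone. Without siNC+H2O2+FV replicate 1, the lowest Dolpp1 library and an end of the GC range, Dolpp1 stood at -0.30 and lost the call (adjusted p = 0.0787). With per-library offsets for GC content and exon length, Dolpp1 stood at -0.30 with an adjusted p of 0.0281.

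In siprdx1 cells Dolpp1 was at 10.9, 13.0 and 10.3 CPM after H2O2 and 8.83, 9.96 and 9.15 CPM after fluvastatin. These groups did not overlap either, but the fold change of -0.29 ± 0.11 (SE, n = 3 per group) narrowly missed the threshold (edgeR adjusted p = 0.0542). Dolpp1 passed here in 5 of 16 alternatives, among them the replicate block (adjusted p = 0.0449), GC and length offsets (-0.33, adjusted p = 0.0153) and the fit without siprdx1+H2O2 replicate 3 (-0.36, adjusted p = 0.0345). Without siprdx1+H2O2 replicate 2 its value was -0.19 (adjusted p = 0.276), and without the 3 libraries at the ends of the GC range, which leaves 1 siprdx1+H2O2 library, it was -0.15 (adjusted p = 0.568). The 2 arms' fluvastatin effects on Dolpp1 differed by 0.09 ± 0.15 (95% interval -0.23 to 0.41, edgeR adjusted p = 0.857). Crat, which overlaps the end of Dolpp1 by 59 exonic bases on the opposite strand, had -0.14 ± 0.08 in siNC (adjusted p = 0.237) and -0.04 ± 0.08 in siprdx1 (adjusted p = 0.810). Whether the counting used strand is not given in the sources used here, so reads from that overlap are uncertain.

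Coq9, the partner of the Coq7 hydroxylase, was lower after fluvastatin in siprdx1 cells. Its level there was 30.3, 38.8 and 36.4 CPM after H2O2 and 28.5, 30.1 and 28.1 CPM after H2O2 and fluvastatin, with the highest fluvastatin library just under the lowest H2O2 library. The log2 fold change of Coq9 was -0.28 ± 0.09 (SE, n = 3 per group, 95% interval -0.47 to -0.10, edgeR adjusted p = 0.0244). Its call was lost without siprdx1+H2O2 replicate 2 (-0.21, adjusted p = 0.131), siprdx1+H2O2 replicate 3 (-0.26, 0.0901), siprdx1+H2O2+FV replicate 1 (-0.27, 0.0789) or siprdx1+H2O2+FV replicate 3 (-0.26, 0.0815). With GC and length offsets the Coq9 value was -0.31 (adjusted p = 0.000243). These values share their H2O2 group with the H2O2 effect. Against untreated siprdx1 cells Coq9 was not called (-0.18, edgeR adjusted p = 0.159).

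In siNC cells Coq9 was at 34.0, 33.4 and 35.5 CPM after H2O2 and 24.8, 30.2 and 31.9 CPM after fluvastatin, again without overlap. Its fold change was -0.24 ± 0.09 (SE, n = 3 per group, edgeR adjusted p = 0.0562), past the threshold in 4 of 16 alternatives, among them the replicate block (adjusted p = 0.0368) and the fit without siNC+H2O2+FV replicate 3 (-0.31, adjusted p = 0.0225). Without siNC+H2O2+FV replicate 1, the lowest Coq9 library of its group, it was -0.14 (adjusted p = 0.318). With GC and length offsets it was -0.16 (adjusted p = 0.0764). The difference between the arms was -0.04 ± 0.13 (95% interval -0.31 to 0.22, edgeR adjusted p = 0.934). Coq9 (chromosome 8, 94838321 to 94854895, plus strand) shares 38 exonic bases at its start with Ciapin1 on the opposite strand, whose values were 0.09 ± 0.10 in siNC and 0.18 ± 0.10 in siprdx1, neither past the threshold.

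In all, fluvastatin gave a call for 1 of 10 members in siNC (Dolpp1) and 1 of 10 in siprdx1 (Coq9), both lower, against 24.9% and 23.6% of all genes tested, of which 11.3% and 11% were lower. Groups did not overlap for 3 of 10 members in siNC (Pdss1, Coq9 and Dolpp1) and 3 of 10 in siprdx1 (Coq3, Coq9 and Dolpp1), against 38.9% and 35.4% of all genes. The members' median log2 fold change was -0.02 in siNC and 0.06 in siprdx1, beside -0.01 for all genes tested in each arm. Pdss1 had the highest value, 0.54 ± 0.21 in siNC (95% interval 0.11 to 0.97, edgeR adjusted p = 0.0611). Its level went from 3.71, 4.28 and 3.28 CPM after H2O2 to 4.93, 5.86 and 5.51 CPM after fluvastatin. Pdss1 passed in 5 of 16 alternatives, among them the replicate block (adjusted p = 0.04995) and the fit without the 3 libraries at the ends of the GC range (0.61, adjusted p = 0.0423), but not with GC and length offsets (0.44, adjusted p = 0.0548). In siprdx1 Pdss1 had 0.27 ± 0.20 with overlapping groups (edgeR adjusted p = 0.399). Pdss1 shares 194 exonic bases with Abi1 and 207 with the pseudogene A130006I12Rik, both on the opposite strand, so some of its reads are uncertain.

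Coq2, which joins tail and ring, had -0.02 ± 0.08 in siNC and 0.20 ± 0.08 in siprdx1 after fluvastatin (edgeR adjusted p = 0.903 and 0.0698), and the latter passed with GC and length offsets (0.17, adjusted p = 0.0425), without siprdx1+H2O2 replicate 2 (0.27, adjusted p = 0.0185) and without siprdx1+H2O2+FV replicate 1 (0.25, adjusted p = 0.0443). Counting the offsets combined with the replicate block, Coq2 passed in 4 of 16 alternatives, and its lowest value was 0.09 (adjusted p = 0.379), with library size alone. Coq7 had 0.17 ± 0.09 in siNC (edgeR adjusted p = 0.191), 0.28 without siNC+H2O2 replicate 2 (adjusted p = 0.0307) and 0.11 without siNC+H2O2 replicate 1 (adjusted p = 0.499). Reads of Coq2 can be shared with the pseudogene Gm6728, which matched it at 94.4% identity over 1095 bases and averaged 0.353 CPM against 30.8 CPM for Coq2. The 2 subunits of the dolichol-chain synthase gave no call. Dhdds had -0.02 ± 0.07 (95% interval -0.18 to 0.13) in siNC and -0.04 ± 0.07 (-0.19 to 0.11) in siprdx1, and Nus1 0.13 ± 0.10 (-0.07 to 0.34) and 0.02 ± 0.10 (-0.18 to 0.23). Coq5 likewise had -0.04 ± 0.07 (-0.19 to 0.12) and -0.02 ± 0.07 (-0.17 to 0.13).

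Marker sums moved with fluvastatin as well. These sums weigh the most abundant markers most, so they need not follow the number of cells of a type. By mean CPM, Cyp11a1 (712) and Star (286) led the Leydig sum, Lyz2 (5677) the macrophage sum, and Acta2 (798) and Tagln (648) the smooth muscle sum. Star alone ranged from 171 to 530 CPM over the libraries. Whether the other markers of each list moved alike is not given here. In siNC, summed levels went from 1165 to 1184 CPM after H2O2 to 1445 to 1497 CPM after fluvastatin for the 8 Leydig markers, and from 1234 to 1321 CPM to 2178 to 2320 CPM for the 5 smooth muscle markers. In siprdx1 they went from 986 to 1047 CPM to 1334 to 1345 CPM and from 1024 to 1153 CPM to 1854 to 2093 CPM. The 8 macrophage markers went from 8549 to 9217 CPM to 7474 to 7637 CPM in siNC, and from 7465 to 7723 CPM to 7802 to 8189 CPM in siprdx1. The 5 Sertoli markers went from 31.4 to 34.0 CPM to 51.6 to 57.0 CPM in siNC and from 36.1 to 38.3 CPM to 51.9 to 57.3 CPM in siprdx1. Stromal markers went from 18924 to 19619.8 CPM to 18251 to 18956 CPM in siNC, which overlap, and from 17269 to 18535 CPM to 15798 to 16454 CPM in siprdx1. The 4 endothelial markers went from 93.7 to 95.2 CPM to 90.7 to 92.2 CPM in siNC and from 82.2 to 94.5 CPM to 75.7 to 77.3 CPM in siprdx1. Germ cell markers summed to at most 1.24 CPM in any library. The mitochondrial share of counts was 1.13 to 1.23% after H2O2 and 1.34 to 1.58% after fluvastatin in siNC, and 0.988 to 1.24% and 1.27 to 1.48% in siprdx1. The part of these shifts in the values of Dolpp1 and Coq9 was not tested.

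**Figure D2:**
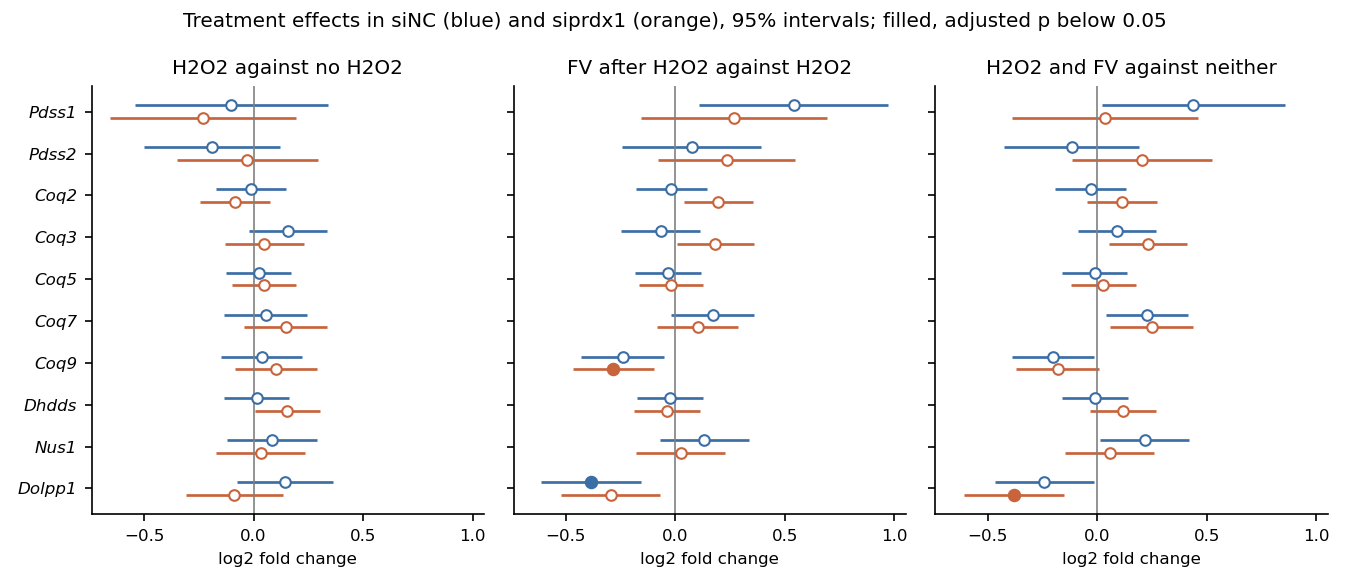
Points are log2 fold changes (x axis) of each member (y axis) with 95% intervals for H2O2, for fluvastatin after H2O2 and for both against neither, in siNC (blue) and siprdx1 (orange), and filled points passed an adjusted p of 0.05. Filled points are Dolpp1 (-0.39) in siNC and Coq9 (-0.28) in siprdx1 for fluvastatin and Dolpp1 (-0.38) in siprdx1 for both agents.

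Cells given both agents were also set against cells given neither. This comparison shares its fluvastatin group and its untreated group with the comparisons above, so the values are given side by side and not as separate support. In siprdx1 Dolpp1 went from 11.6, 12.3 and 12.6 CPM to 8.83, 9.96 and 9.15 CPM, a fall of -0.38 ± 0.11 (SE, n = 3 per group, edgeR adjusted p = 0.0122). It was the 1 call among 10 members, against 25.5% of all genes tested, 12.9% being lower. Its call was lost without siprdx1+H2O2+FV replicate 1 (-0.34, adjusted p = 0.0613). In siNC Dolpp1 went from 10.6, 10.8 and 12.1 CPM to 8.24, 10.9 and 9.13 CPM, so the groups overlapped, with -0.24 ± 0.11 (edgeR adjusted p = 0.120). Dolpp1 stood at -0.36 without siNC+H2O2+FV replicate 2 (adjusted p = 0.0341) and at -0.16 without replicate 1 of that group (adjusted p = 0.420). Coq9 had -0.20 ± 0.09 in siNC (edgeR adjusted p = 0.113), with -0.28 without siNC+H2O2+FV replicate 3 (adjusted p = 0.0451) and -0.10 without replicate 1 of that group (adjusted p = 0.498). In siprdx1, where it was called against H2O2 alone, Coq9 had -0.18 ± 0.09 against untreated cells (edgeR adjusted p = 0.159). These groups did not overlap. Coq9 passed there in 3 of 15 alternatives, among them GC and length offsets (-0.24, adjusted p = 0.00517). H2O2 alone had given 0.10 ± 0.09 for Coq9 in siprdx1 (edgeR adjusted p = 0.562). No member passed in siNC (0 of 10 by edgeR, limma voom and DESeq2, against 23% of all genes), and 5 had an unadjusted p under 0.05, against 33.2% of all genes.

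Coq7, the ring hydroxylase, was higher in every library with both agents than in every library with neither. In siNC it was at 13.8, 13.9 and 12.9 CPM without and 16.5, 15.7 and 15.4 CPM with them, and in siprdx1 at 12.9, 14.0 and 12.1 CPM without and 15.8, 15.8 and 14.9 CPM with them. The differences of 0.23 ± 0.09 and 0.25 ± 0.09 did not pass (edgeR adjusted p = 0.0777 and 0.0510). With GC and length offsets both passed, at 0.23 (adjusted p = 0.0485) and 0.27 (adjusted p = 0.0214), and that of siprdx1 did with the replicate block (adjusted p = 0.0444) and without siprdx1 replicate 2 (0.31, adjusted p = 0.0350). With library size alone they were 0.10 and 0.11 (adjusted p = 0.429 and 0.403). Coq3 in siprdx1 went from 11.9, 10.5 and 11.3 CPM to 13.0, 13.3 and 13.3 CPM, with 0.23 ± 0.09 (edgeR adjusted p = 0.0527), and with 0.28 without siprdx1 replicate 1 (adjusted p = 0.0486) and 0.18 without siprdx1 replicate 2 (adjusted p = 0.205). Groups did not overlap for 2 of 10 members in siNC and 4 of 10 in siprdx1, against 35.5% and 40.4% of all genes.

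Knockdown of Prdx1 was followed by slightly more Coq5 RNA. Coq5 (chromosome 5, 115279666 to 115296972, plus strand) is the ring methyltransferase that places a methyl group on carbon. Without H2O2 it was at 25.96, 24.2 and 24.6 CPM in the siNC libraries, and in siprdx1 at 28.2, 25.7 and 28.5 CPM. After H2O2 the siNC libraries had 23.3, 25.7 and 26.8 CPM of Coq5, and the siprdx1 libraries 27.5, 28.7 and 28.7 CPM. After fluvastatin it was at 25.9, 22.8 and 25.4 CPM and 26.8, 28.9 and 28.1 CPM. The siNC and siprdx1 libraries did not overlap after H2O2 and after fluvastatin, and overlapped without H2O2.

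Marker sums, led by the same abundant markers, also differed between the arms. Without H2O2, the ranges of siNC and siprdx1 did not overlap for Leydig (1124 to 1165 and 1057 to 1073 CPM), stromal (17819.9 to 18849 and 15019.8 to 15772 CPM), smooth muscle (1205 to 1378 and 1008 to 1100.2 CPM) and endothelial markers (90.2 to 98.3 and 69.98 to 79.9 CPM). After H2O2 they did not overlap for Leydig (1165 to 1184 and 986 to 1047 CPM), macrophage (8549 to 9217 and 7465 to 7723 CPM), stromal (18924 to 19619.8 and 17269 to 18535 CPM) and smooth muscle markers, nor for Sertoli markers, which were higher in siprdx1 (31.4 to 34.0 and 36.1 to 38.3 CPM). After fluvastatin they did not overlap for Leydig (1445 to 1497 and 1334 to 1345 CPM), stromal (18251 to 18956 and 15798 to 16454 CPM), smooth muscle and endothelial markers, nor for macrophage markers, which were higher in siprdx1. The part of these differences in the Coq5 values was not tested.

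Averaged over the 3 treatments, the knockdown effect on Coq5 was 0.16 ± 0.04 (SE, 9 libraries per arm, 95% interval 0.07 to 0.24, edgeR adjusted p = 0.0154), a level 1.12 times that of siNC. It passed in all 27 alternatives run, between 0.14 and 0.18. Coq5 was the 1 call among 10 members for the average, against 9.38% of all genes, 3.93% being higher. In the single treatments Coq5 had 0.14 ± 0.07, 0.16 ± 0.07 and 0.18 ± 0.07, and no treatment passed alone (edgeR adjusted p = 0.515, 0.301 and 0.201). The within-group deviations of Coq5 did not follow the GC slope of the libraries (r = 0.06 over 18 libraries).

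In the single treatments no member passed for knockdown (0 of 10 by edgeR, limma voom and DESeq2 in each of the 3). The backgrounds were 2.33% of all genes without H2O2, 2.73% after H2O2 and 3.97% after fluvastatin, and at an unadjusted p under 0.05 there were 0, 1 and 3 members, against 11.1%, 13.9% and 16.6% of all genes. The siNC and siprdx1 groups did not overlap for 0, 1 and 3 of 10 members, against 15.3%, 17.2% and 22.3% of all genes. After fluvastatin those 3 were Coq2, Coq3 and Coq5. Coq2 was at 27.8, 28.7 and 30.8 CPM with siNC, and at 32.3, 36.8 and 34.8 CPM with siprdx1, with 0.25 ± 0.08 (edgeR adjusted p = 0.0788). For the average Coq2 had 0.13 ± 0.04 (edgeR adjusted p = 0.0716), which passed without siNC+H2O2+FV replicate 3 (0.15, adjusted p = 0.0495) and without siprdx1+H2O2 replicate 1 (0.14, adjusted p = 0.0423). It passed in 5 of 27 alternatives and Nus1 in 2 of 27. Both Coq2 (0.12, adjusted p = 0.0239) and Nus1 (0.10, adjusted p = 0.00836) passed with GC and length offsets, where Nus1 had 0.11 ± 0.06 without them.

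**Figure D3:**
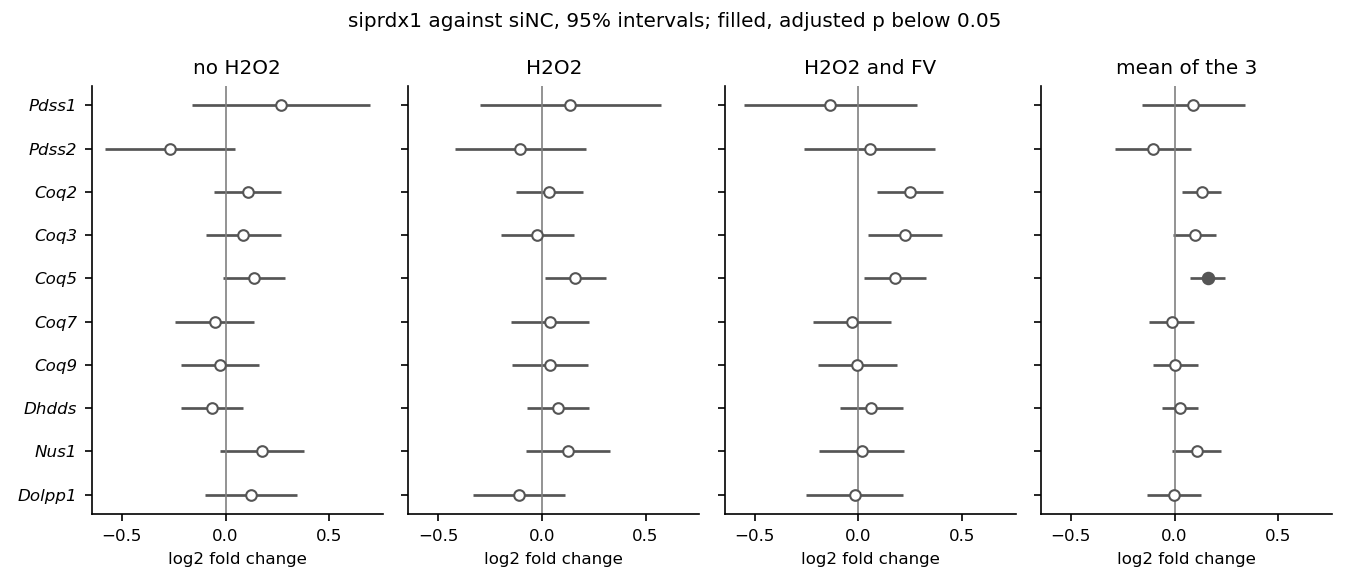
Points are log2 fold changes of siprdx1 against siNC (x axis) for each member (y axis) with 95% intervals, in each treatment and for their mean. Coq5 is the filled point, at 0.16 for the mean, and its 3 single values lie between 0.14 and 0.18.

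The interaction of knockdown with H2O2 and with fluvastatin gave no call (0 of 10 members by edgeR, limma voom and DESeq2, against 0.243% and 0.651% of all genes). At an unadjusted p under 0.05 there were 0 members in each, against 5.95% and 12.9% of all genes. Coq3 had the smallest p in the fluvastatin interaction, 0.25 ± 0.12 (95% interval -0.0023 to 0.50, edgeR adjusted p = 0.394). Half-widths of these intervals ran from 0.21 to 0.61, so the arms' responses are not shown to be alike.

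Genes that act next to the members were read from the same fits, in lists chosen with earlier results of these data known. The counts passing after fluvastatin in these lists stand beside 24.9% of all genes tested in siNC and 23.6% in siprdx1. Among 6 other coenzyme Q genes, fluvastatin was followed in siNC by a rise of 1 (Coq10b) and a fall of 2 (Coq8a and Coq4), and in siprdx1 by a rise of 2 (Coq10b and Coq8b) and a fall of 2 (Coq8a and Coq10a). Coq10a, at -0.26 ± 0.08, lost its call without siprdx1+H2O2 replicate 1 (-0.21, adjusted p = 0.0947) or siprdx1+H2O2+FV replicate 1 (-0.23, adjusted p = 0.0880). The Coq4 value in siNC, -0.66 ± 0.17, shares its H2O2 group with a rise of 0.73 after H2O2, and against untreated cells Coq4 had 0.07 ± 0.17 (edgeR adjusted p = 0.833). The Coq8b value in siprdx1, 0.41, shares its H2O2 group with -0.22 after H2O2. Against untreated siprdx1 cells Coq8b (0.19) and Coq10a (-0.18) did not pass (edgeR adjusted p = 0.152 and 0.116). Coq10b (1.54) and Coq8a (-0.27) passed there (edgeR adjusted p = 1.08e-11 and 0.00259). The list's median was -0.09 in siNC and -0.03 in siprdx1. Coq10b, which binds coenzyme Q and aids its use in respiration, was at 40.1, 33.2 and 36.4 CPM after H2O2 and 129, 116 and 106 CPM after fluvastatin in siNC. It rose by 1.68 ± 0.09 in siNC (edgeR adjusted p = 2.87e-12) and by 1.55 ± 0.09 in siprdx1 (edgeR adjusted p = 8.04e-12), and passed in all 16 alternatives in each arm. Coq8a, an atypical kinase needed for coenzyme Q synthesis, fell by 0.47 ± 0.06 and 0.34 ± 0.06 (edgeR adjusted p = 6.49e-06 and 0.000217). Averaged over treatments, Coq8a was higher with knockdown, by 0.27 ± 0.04 (edgeR adjusted p = 1.84e-05).

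After fluvastatin, of 11 tested enzymes that reduce or use coenzyme Q outside complexes I and III, the 1 that passed in either arm was Nqo1, a quinone reductase, in siprdx1, at 0.45 ± 0.07 (edgeR adjusted p = 3.16e-05), beside 0.18 ± 0.07 in siNC (adjusted p = 0.0749), which passed without siNC+H2O2 replicate 1 (0.25, adjusted p = 0.0284). Of all genes tested, 24.9% passed in siNC and 23.6% in siprdx1. Nqo1 was also higher with knockdown, by 0.49 ± 0.04 for the average (edgeR adjusted p = 2.98e-08).

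Of the 2 tested genes of dolichol maturation, Dolk, the dolichol kinase, fell by 0.25 ± 0.09 in siNC and 0.29 ± 0.08 in siprdx1 after fluvastatin (edgeR adjusted p = 0.0336 and 0.0148). It passed in 8 of 16 alternatives in siNC, not among them the GC and length offsets (-0.15, adjusted p = 0.182), and in 13 of 16 in siprdx1. Its call was lost without any 1 of the 3 siNC+H2O2 libraries or siNC+H2O2+FV replicate 2 in siNC (to -0.17, adjusted p = 0.213, for the last), and without siprdx1+H2O2 replicate 2 (-0.24, adjusted p = 0.0746) or siprdx1+H2O2+FV replicate 1 (-0.26, adjusted p = 0.0686) in siprdx1. Of 18 tested genes of the dolichol-linked sugar donors, 3 rose (Dpm1, Alg13 and Alg11) and 3 fell (Dpm3, Dpagt1 and Alg2) in siNC, with a median of -0.08, and 1 rose (Dpm1) and 1 fell (Alg2) in siprdx1, with a median of 0.04. Over all genes tested, 24.9% passed in siNC and 23.6% in siprdx1. Dpm1 passed in all 16 alternatives in each arm. In siNC Alg13 passed in 12 of 16, Alg11 and Dpm3 in 10, Dpagt1 in 8 and Alg2 in 7, and in siprdx1 Alg2 in 9. Alg2 lost its siNC call without any 1 of the 6 libraries compared (adjusted p = 0.0523 to 0.183) and Dpagt1 without any but siNC+H2O2 replicate 2 (0.0607 to 0.146). Dpm3 lost it without siNC+H2O2 replicate 1 or 3 or siNC+H2O2+FV replicate 1 or 2 (0.0759 to 0.189), Alg11 without siNC+H2O2 replicate 2 or 3 or siNC+H2O2+FV replicate 1 or 2 (0.0559 to 0.107), and Alg13 without siNC+H2O2 replicate 3 or siNC+H2O2+FV replicate 1 or 2 (0.0547 to 0.106). In siprdx1 Alg2 lost it without siprdx1+H2O2 replicate 1 or 3 or siprdx1+H2O2+FV replicate 2 or 3 (0.0549 to 0.117). The fluvastatin values share their H2O2 group with the H2O2 effect, so both agents were also set against neither. In siNC Alg11 then passed, at 0.36 (edgeR adjusted p = 0.00305). Dpm1 (-0.20, 0.285), Alg13 (0.21, 0.277), Dpm3 (-0.15, 0.529), Dpagt1 (-0.14, 0.185) and Alg2 (-0.08, 0.302) did not. Neither did Dpm1 (-0.34, 0.0529) and Alg2 (-0.05, 0.582) in siprdx1. Of 11 oligosaccharyltransferase subunits, the 1 that passed after fluvastatin in either arm was Krtcap2, which fell in siNC by 0.25 ± 0.08 (edgeR adjusted p = 0.0355) and had -0.01 in siprdx1 (adjusted p = 0.929). Krtcap2 lost its call without siNC+H2O2 replicate 1 or 3 or siNC+H2O2+FV replicate 1 or 2 (-0.25 to -0.18, adjusted p = 0.0750 to 0.200). Its siNC value shares the H2O2 group with 0.27 after H2O2 (edgeR adjusted p = 0.0556). Against untreated siNC cells Krtcap2 had 0.02 (edgeR adjusted p = 0.896). Dolpp1 and Dolk, which both restore dolichol phosphate, thus had values of -0.39 and -0.25 in siNC and -0.29 and -0.29 in siprdx1. The other tested gene of dolichol maturation had 0.05 in siNC and -0.05 in siprdx1. Against untreated cells Dolk had -0.21 in siNC and -0.18 in siprdx1 (edgeR adjusted p = 0.0804 and 0.141).

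**Figure D4:**
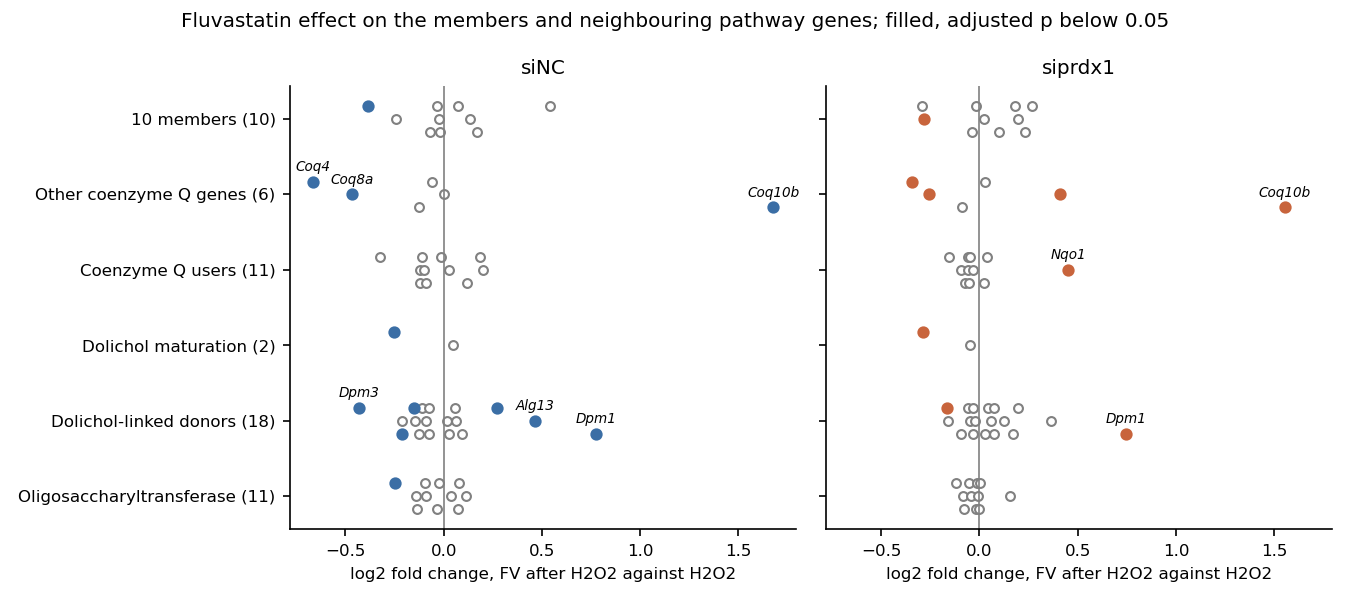
Points are log2 fold changes after fluvastatin (x axis) of the members and of the genes of 5 neighbouring lists (rows, number tested in parentheses) in siNC and siprdx1, and filled points passed an adjusted p of 0.05. Coq10b (1.68 and 1.55) stands far to the right, while the members lie between -0.39 and 0.54.

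Within groups, several members moved with the GC dependence of their library. Over the 18 libraries, the deviation of Nus1 from its group mean had r = -0.94 with the deviation of the GC slope, that of Coq9 r = 0.81, that of Pdss1 r = -0.71 and that of Coq2 r = 0.67. Nus1 and Pdss1 have GC contents of 42.3% and 39.2% in their longest transcripts, and Coq2 and Coq9 54.3% and 55.6%. The within-group SD of Nus1 was 0.14 on the log2 scale and 0.05 once this slope was taken out. Dolpp1, at 56.1% GC, had r = 0.41. Correlations between members changed with it, with r = -0.76 for Coq9 and Nus1, which became 0.01 without the slope. For Coq3 and Dhdds r was -0.77, and it was -0.72 without the slope. Other pairs had the larger r without the slope, such as Pdss1 and Coq9 (from -0.28 to 0.72), Coq7 and Nus1 (-0.21 to -0.73) and Pdss2 and Dhdds (-0.26 to -0.63). These correlations share libraries and depth and are descriptions.

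**Figure D5:**
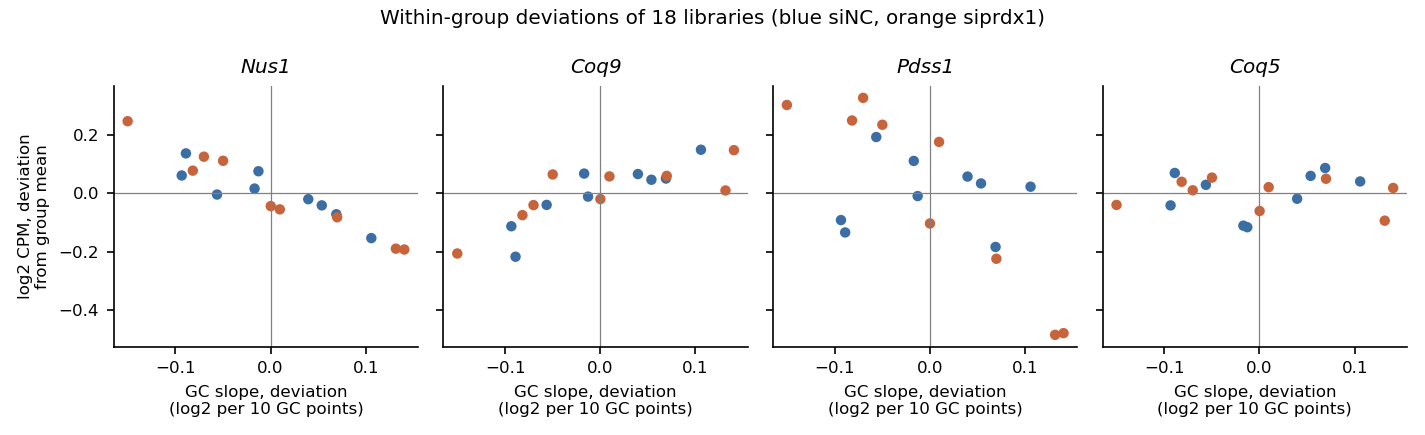
Each point is 1 of the 18 libraries (blue siNC, orange siprdx1), with the deviation of its GC slope from the group mean on the x axis (log2 per 10 GC points) and the deviation of the member's log2 CPM on the y axis. Nus1 falls with the slope (r = -0.94), Coq9 rises with it (r = 0.81), Pdss1 falls (r = -0.71) and Coq5 shows no trend (r = 0.06).

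The genes whose log2 CPM was most like that of Dolpp1 over the 18 libraries were Ankrd34a (r = 0.90), Nfkbil1 (0.88) and Zfp362 (0.88). For Coq9 they were Srebf1 (r = 0.91), Plin3 (0.91) and Prag1 (0.90), whose within-group deviations also followed the GC slope, with r = 0.96, 0.87 and 0.84.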

How the data were processed

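Per the labels' protocols, polyA RNA went into stranded libraries. The authors deposited raw counts per gene; the submitters' processing notes name HISAT2, HTSeq and mm10, without versions, and the annotation and strand setting are not given in the sources used here. Groups come from the labels and column names. Gene IDs were looked up in GENCODE M21 (GRCm38), which held 55141 of 55487. Near-identical sequences were sought with blastn 2.17.0 (90% identity over 200 bp). Promoters are RefSeq's.

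Tests used edgeR 4.0.16 in R 4.3.3 (TMM, filterByExpr, robust quasi-likelihood fit of 6 group means to 18 libraries, 12 residual degrees of freedom), with Benjamini-Hochberg adjustment at 0.05 over all 16432 genes tested in each of 12 contrasts. log2 CPM used a prior count of 2. The common biological coefficient of variation was 7.01%. Alternatives were RLE factors, library size alone, no low-count filter, the replicate block, limma 3.58.1 voom, DESeq2 1.42.0, only the groups compared, and each library left out. GC and length offsets (splines, 3 df each), and leaving out the 3 libraries of steepest GC slope, were chosen after seeing the data. The fits were tested on simulated counts with planted changes larger than those called for members and without a GC effect. That test therefore does not bear on the member calls.

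All 10 members are named by rule, with Prdx1 and, from each neighbouring list, genes that passed; genes most like Dolpp1 and Coq9 were the 3 of highest r. A list of genes upstream of the members is not reported here. Members and lists were chosen with earlier results of these data known. Same-numbered replicates deviated together by the rule of r over 0.1 in every pair only for H2O2 in siNC (0.135, 0.135 and 0.118), a pairing that comes from the data and not from the labels. Replicate pairs differed by 2.74 to 17.1 times counting noise, so none were copies.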

Additional observations from a re-analysis of the deposited data

How the results depend on the processing

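The 10 members' fold changes under the alternatives kept their direction and side of the threshold in 1916 cases, passed it in 49 more and lost it in 8. Most of these values were not called, and only a called value can be lost. The 8 losses fell on Dolpp1 and Coq9 calls, and none on the Coq5 call. For fluvastatin, Dolpp1 in siNC passed in 14 of 16 alternatives and Coq9 in siprdx1 in 11 of 16. Dolpp1 for both agents in siprdx1 passed in 14 of 15, and Coq5 for the average knockdown in 27 of 27. Another 147 values, none past the threshold, changed sign, and no called value did. Library size alone shifted the median of all genes in the fluvastatin contrast by about -0.10, from -0.01 to -0.11 in siNC, and the share called higher from 2226 of 4090 to 1474 of 5309. It called 2 members (each fluvastatin and combined contrast, and the average knockdown). Without the low-count filter 3 members passed for fluvastatin in siNC and 1 for both agents in siNC, and the H2O2 and fluvastatin interactions called 97 and 281 genes, against 40 and 107. DESeq2 called 69 and 206 there. limma voom called 2 members for both agents in siprdx1. With only the groups compared, 2 members passed for fluvastatin and 2 for both agents in siNC, and 0 for fluvastatin in siprdx1, where Coq9 had -0.28 (adjusted p = 0.0524). Genes called then were 638 for H2O2 in siprdx1, 193 and 183 for knockdown without and after H2O2, and 24 for the H2O2 interaction.

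With the replicate block 3 members passed for fluvastatin in siNC, 2 in siprdx1 and 2 for both agents in siprdx1. The block changed no other member count, and every count of genes stayed within 1.5 times (1348 against 1142 for H2O2 in siNC). The pairing was upheld by the data only for H2O2 in siNC.

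With GC and length offsets, chosen after seeing the data, 3 members passed for fluvastatin in siprdx1, both agents in siNC, both agents in siprdx1 and the average knockdown. Genes called were 2223 for H2O2 in siprdx1, 909, 1362, 1192 and 2755 for knockdown without H2O2, after H2O2, after fluvastatin and averaged, and 210 and 386 for the interactions. Adding the replicate block to the offsets gave 2 members for fluvastatin in siNC, 3 in siprdx1, 3 for both agents in each arm, 1 for knockdown without H2O2 (Nus1, 0.15, adjusted p = 0.0364) and 3 for its average. Genes called were then 1806 and 2461 for H2O2 in siNC and siprdx1, 1029, 1581, 1365 and 2994 for knockdown, and 276 and 571 for the interactions. Leaving out the 3 libraries of steepest GC slope gave 558 genes for H2O2 and 2453 for fluvastatin in siprdx1, 127 for knockdown after H2O2 and 23 and 36 for the interactions. The siprdx1+H2O2 group then held 1 library, assumed to vary like the other groups, and siNC+H2O2+FV 2. It took the call from Dolpp1 for fluvastatin in siNC (-0.30, adjusted p = 0.0634) and gave one to Pdss1.

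Leaving out 1 library at a time, the members called ranged from 0 to 2 for fluvastatin in siNC, 0 to 1 in siprdx1, 0 to 1 and 0 to 2 for both agents in siNC and siprdx1, and 1 to 2 for the average knockdown. Genes called ranged from 646 to 1155 for H2O2 in siNC, 817 to 1256 in siprdx1, 204 to 344 for knockdown without H2O2, 227 to 457 after H2O2, 320 to 632 after fluvastatin, 26 to 54 for the H2O2 interaction and 55 to 136 for the fluvastatin interaction. Where no value above shows it, the cause was not tested. Pdss1 and Pdss2 had the fewest counts per library of the members (66 to 120 and 93 to 187) and the widest intervals, and the part of depth in that width was not tested.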

Other observations

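Dpm1, the catalytic subunit of dolichol-phosphate mannose synthase, which uses the dolichol phosphate that the members supply, had the largest H2O2 effect in the list of dolichol-linked sugar donors. Its level in siNC was 8.8, 7.78 and 7.21 CPM without H2O2, 4.39, 3.54 and 4.14 CPM after H2O2, and 6.89, 6.35 and 7.39 CPM after H2O2 and fluvastatin. In siprdx1 Dpm1 was at 9.41, 7.62 and 9.69 CPM, 4.54, 4.4 and 3.58 CPM, and 7.12, 6.56 and 7.34 CPM. H2O2 was followed by a fall of 0.98 ± 0.14 in siNC and 1.09 ± 0.13 in siprdx1 on the log2 scale (edgeR adjusted p = 4.89e-05 and 6.61e-06), and the groups did not overlap. The fluvastatin values, 0.77 ± 0.14 and 0.75 ± 0.14, share the H2O2 group with these and are no separate support. Dpm1 overlaps the gene model Gm20716 on the same strand, so its counts are uncertain.

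Coq4, which is needed for coenzyme Q synthesis, rose after H2O2 in siNC. It went from 4.56, 3.32 and 4.81 CPM to 8.1, 6.5 and 6.6 CPM, a change of 0.73 ± 0.16 (edgeR adjusted p = 0.00713, past the threshold in 13 of 15 alternatives, and not without siNC replicate 2, at 0.59, adjusted p = 0.0573, or siNC+H2O2 replicate 1, at 0.63, adjusted p = 0.0537). In siprdx1 Coq4 was at 5.01, 5.84 and 4.63 CPM without and 5.34, 6.69 and 5.42 CPM with H2O2, and the difference between the arms was -0.57 ± 0.23 (edgeR adjusted p = 0.680). These genes were picked out after their values were seen.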
